A study of Homo sapiens with 48 samples.

Results

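The response of HK-2 cells to the high dose of Nnm at 24 h was described across genes. HK-2 cells are an immortalised human kidney line that derives from the epithelium of the proximal tubule, and Nnm is the short name under which the labels give the compound. Of the 48 arrays of the series, 6 were compared, chosen by their titles: 3 of cells exposed to high dose Nnm for 24 h and 3 of control cells of the same time, which were exposed to vehicle and also served as controls of the low dose. Arrays were paired by the biological replicate number in the labels, which runs from 1 to 3 in each group. A further 3 arrays of low dose Nnm at 24 h, 3 of high dose Nnm at 48 h and 3 of the 48 h controls were used to place the values by dose and time. All these cells were of the same line, were seeded 24 h before treatment, and were grown in medium with EGF, hydrocortisone, insulin and transferrin, so the controls received these agents too. The series groups Nnm with CsA, Fk and Ra as compounds called Tox 1, and its stated aim was to find signatures of toxicity in kidney cells. The sources used here do not give the full name of Nnm, the amounts of the 2 doses or what the vehicle was. Nothing in the labels says whether the replicates came from separate passages, so p-values measure the spread between arrays. Unless stated otherwise, that spread was estimated over all 48 arrays and not from the 3 pairs alone.

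Several stress programmes are known in proximal tubule cells and bear on the gene groups below. ATF4 is a transcription factor made when the translation factor eIF2 is phosphorylated, and with its partner CHOP it turns on genes of amino acid uptake, amino acid synthesis and cell death. NRF2 is a transcription factor that is freed from its inhibitor KEAP1 by oxidants and electrophiles and turns on genes of glutathione and thioredoxin metabolism. TXNIP and its arrestin relative ARRDC4 are targets of the glucose-sensing factors MondoA and ChREBP and limit glucose uptake.

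Values are log2 expression as deposited, and a change is the log2 difference of high dose minus control. A value under log2 4 was taken as near background, and 11356 genes that exceeded it in at least 3 of the 48 arrays were tested. The upper quartile of the values was 7.11 to 7.16 in the 3 high dose arrays and 7.11 to 7.20 in the 3 control arrays. The difference between the 3' and 5' probe sets of ACTB, a sign of RNA integrity, was 0.90, 1.08 and 0.88 in the high dose arrays, against 0.75, 1.06 and 0.72 in the control arrays, and its part in the results was not tested. The labelled cell type showed in part of its markers. All 8 epithelial markers were above log2 4 in every array of both groups, among them EPCAM, KRT8 and KRT18, with summed log2 values of 82.3 to 85.9 in the high dose and 86.3 to 88.6 in the control arrays. Of 14 proximal tubule markers 12 were on the array, and only DPP4, PAX8 and GATM were above log2 4 in all 6 arrays, while the endocytic receptors LRP2 and CUBN, the transporters SLC34A1, SLC22A6 and SLC22A8 and the water channel AQP1 were below it. Of the 8 leukocyte markers on the array 0 exceeded log2 4 in all arrays of a group, and of 10 fibroblast markers 3 did in both groups (DCN, LUM and COL1A1). These 3 were well above background. In the high dose and control arrays DCN averaged 11.71 and 12.10, LUM 10.09 and 10.15 and COL1A1 8.08 and 8.85, against 11.47 and 12.09 for KRT8. The summed log2 values of the 10 fibroblast markers were 47.7 to 50.5 in the high dose arrays and 49.5 to 50.6 in the control arrays, and the 10 endothelial markers summed to 29.1 to 30.6, against 29.2 to 29.4. The part of these markers in the results was not tested.

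The 3 pairs did not respond alike. The SD over genes of the difference within a pair was 0.95 in pair 1, 0.45 in pair 2 and 0.93 in pair 3. A difference above 1 in size was seen for 2679 genes in pair 1, 457 in pair 2 and 2574 in pair 3. Across the 11356 genes, which are not independent replicates, the differences of pairs 1 and 3 correlated at 0.92, those of pairs 1 and 2 at 0.41 and those of pairs 2 and 3 at 0.46. Replicate 2 also had the smallest differences at the low dose at 24 h, with an SD of 0.40 against 0.71 in pair 1 and 0.71 in pair 3, and at the high dose at 48 h, with 0.45 against 0.91 and 0.84. Results are therefore given by pair or without replicate 2 where that matters. Replicate 2 was set apart by its smaller differences in these same values. Larger changes and lower p-values without it follow in part from that choice, and are given as description and not as support. The cause was not tested.

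**Figure D1:**
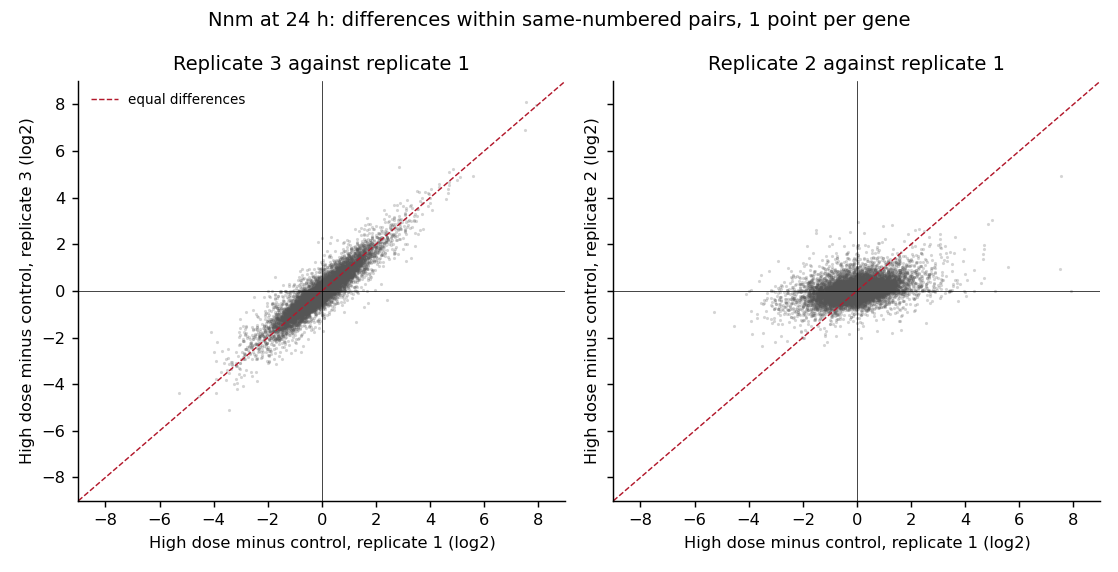
Each point is 1 of the 11356 genes, plotted by its log2 difference of high dose minus control in replicate 1 (horizontal axis) and in replicate 3 (left panel) or replicate 2 (right panel), with the dashed line where both would be equal. Pairs 1 and 3 lie along the line (correlation across genes 0.92), and pair 2 lies closer to 0 (0.41 with pair 1).

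High dose Nnm changed the levels of 3827 genes at 24 h (33.7% of those tested), 1776 of them higher (15.6%) and 2051 lower (18.1%), at an adjusted p under 0.05. Among the higher genes the median change was 0.89 and 106 passed a change of 2, and among the lower genes the median was -0.81 and 72 passed -2. The direction was shared by all 3 pairs for 1581 of the higher and 1795 of the lower genes. In pair 2 the median difference of these genes was smaller, at 0.35 for the higher and -0.31 for the lower ones, against 1.15 and -1.06 in pair 1 and 1.13 and -1.04 in pair 3. The 3 high dose values and the 3 control values did not overlap for 1297 of the 1776 higher genes and 1511 of the 2051 lower genes, and over all genes tested the groups did not overlap for 38%. Without replicate 2, 1990 genes were higher (17.5%) and 2336 lower (20.6%), and 1628 and 1899 of them were calls of the full comparison too. In the fit to all arrays without the replicate block, 1197 of the 11356 genes were higher and 1421 lower. List counts given below for these 2 settings are to be read against these counts of all genes. Replicates 1 and 3 carried more of the calls, since 989 genes were called without replicate 1 and 1001 without replicate 3, and 2147 to 2252 without any one of the high dose or control arrays of these numbers. These calls rest on the spread shared by all 48 arrays: with the 6 arrays alone and the replicate number as a block, limma called 0 genes, although 3846 had an unadjusted p under 0.05, and without the block it called 191 higher and 145 lower. In RNA from whole wells, fewer cells of a kind and less RNA per cell cannot be told apart.

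The largest fitted rise was that of SLC16A14, a member of the monocarboxylate transporter family. Of the 12 largest rises only PCLO and FZD7 had a control mean above log2 4, so the sizes of the other rises, and their order, depend on where GCRMA sets the background and give no exact fold. Its values were 10.57, 7.33 and 10.65 in high dose arrays 1 to 3, against 3.02, 2.42 and 2.55 in the control arrays. All 3 high dose values lay far above all control values, including replicate 2, with a fitted change of 6.85 ± 0.65 (SE, n = 3 pairs, adjusted p = 1.65e-07). RNF150, which encodes a RING-finger protein, had 10.08, 2.18 and 10.17 in the high dose arrays, against 2.16, 2.17 and 2.20 in the control arrays. The rise of RNF150 was thus carried by replicates 1 and 3, with replicate 2 at the control level, and its mean change was 5.30 ± 0.92 (adjusted p = 8.49e-05). TPPP, a tubulin polymerisation-promoting protein, showed the same division, with 10.38, 3.65 and 9.75 in the high dose arrays, against 2.86, 2.72 and 2.86 in the controls. C5AR1, the receptor of the complement fragment C5a, rose in every pair, with 8.58, 6.33 and 8.35 in the high dose arrays, against 3.74, 3.46 and 3.11 in the controls (change 4.31 ± 0.46, adjusted p = 4.17e-07). PCLO, a scaffold protein of the presynaptic zone, had 9.73, 7.91 and 9.24 in the high dose arrays, against 4.75, 4.84 and 4.49 in the controls.

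The other genes among the 12 largest rises, which were taken only from genes higher in all 3 pairs, were DHRS2, KDM7A, ARRDC4, SLC16A9, HEY1, FZD7 and ANG, with changes of 3.85 to 3.27. They include a histone demethylase (KDM7A), a second member of the SLC16 family (SLC16A9), a transcriptional repressor induced by Notch (HEY1), a Wnt receptor (FZD7) and the secreted ribonuclease angiogenin (ANG). Replicate 2 was above its control for each of them, by 2.33 for ANG, 1.97 for KDM7A and 1.78 for ARRDC4, and by 0.56 for HEY1 and 1.02 for DHRS2. The groups overlapped only for RNF150 among these 12 genes. Each of the 12 was called with any single array of the comparison left out.

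The largest falls were those of NRG1 and CLDN2, each with a change of -3.52. NRG1, neuregulin, is a growth factor of the EGF family that binds ERBB3 and ERBB4. Its values were 4.25, 7.55 and 5.10 in the high dose arrays, against 8.81, 9.07 and 9.59 in the control arrays. Every high dose value was below every control value, with replicate 2 again the closest (adjusted p = 9.55e-06). CLDN2, claudin 2, forms the cation- and water-permeable tight junctions typical of the proximal tubule. It had 5.92, 9.91 and 6.07 in the high dose arrays, against 11.20, 10.81 and 10.43 in the controls. The fall of CLDN2 exceeded 4 in pairs 1 and 3 and was 0.91 in pair 2. TBL3, a component of the processome that matures ribosomal RNA, had 4.42, 5.00 and 3.10 in the high dose arrays, against 7.32, 6.41 and 7.16 in the controls (change -2.79 ± 0.41, adjusted p = 1.63e-05). PLK2, a polo-like kinase, had 8.34, 10.74 and 8.69 in the high dose arrays, against 12.05, 11.71 and 12.17 in the controls.

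The 12 largest falls further held CAVIN2, a coat protein of caveolae, with a change of -2.86, the dehydrogenase DHRS11 with -2.73, C1orf116 with -2.84, and the zinc finger genes ZBED2 and ZBED10P with -2.97 and -3.08. The long noncoding RNAs ZFHX4-AS1, LINC00472 and LINC00973 fell by 2.79, 2.73 and 2.72 on the log2 scale. The 12 were taken only from genes lower in all 3 pairs, and the groups overlapped only for ZBED2, where 5.79 in high dose replicate 2 exceeded 5.61 in control replicate 1.

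**Figure D2:**
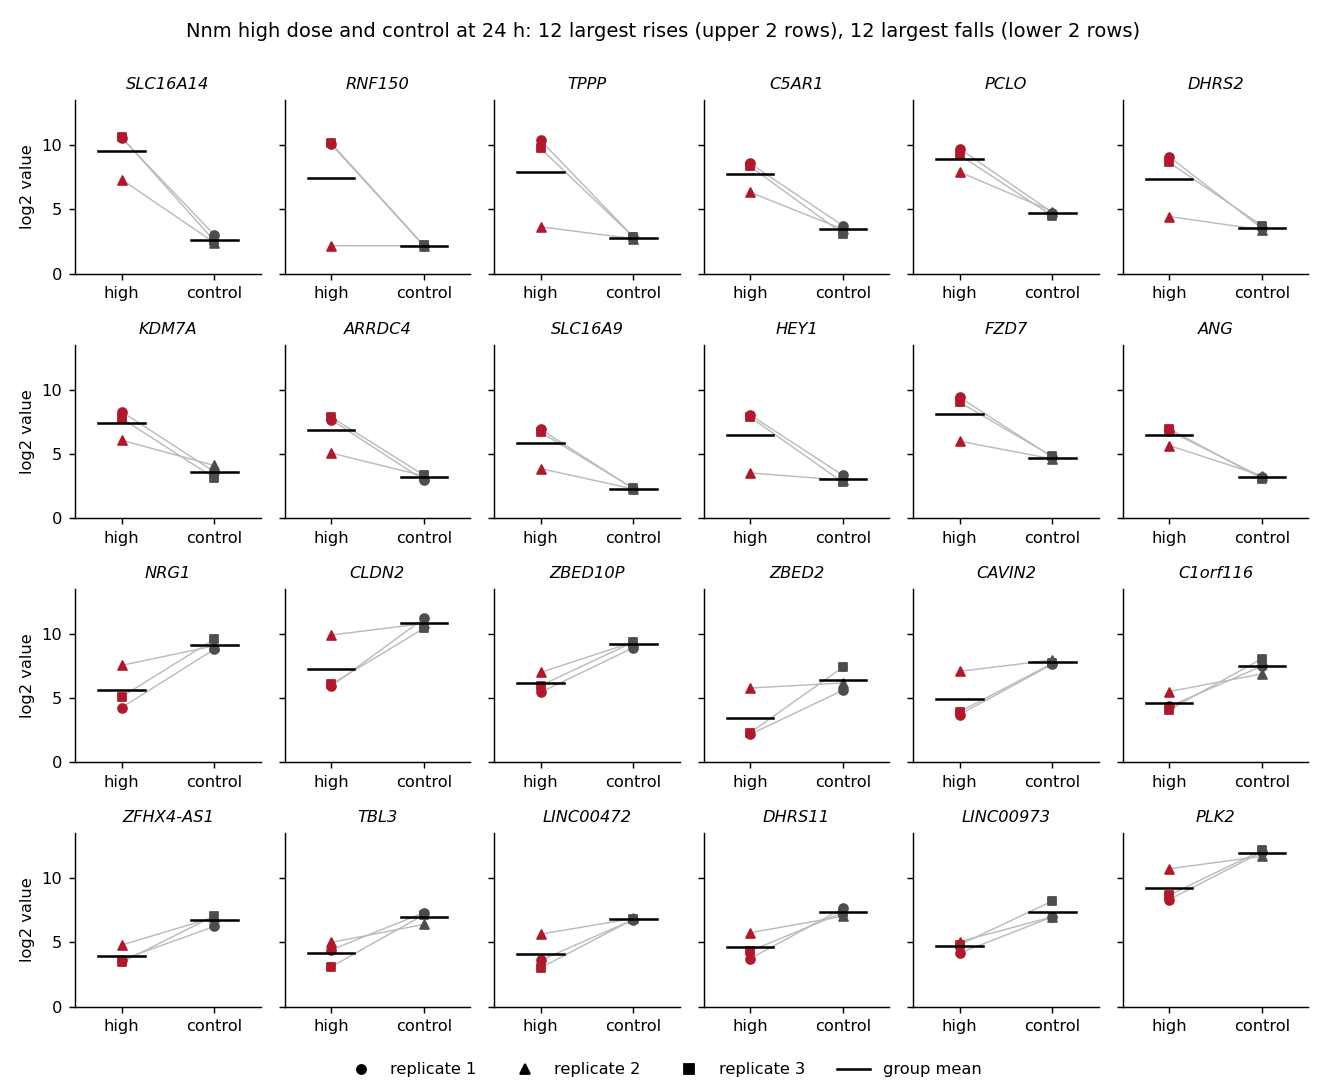
Log2 values in the 3 high dose arrays (left in each panel, red) and the 3 control arrays (right, grey) at 24 h, with lines joining same-numbered arrays and bars at the group means, for the 12 largest rises (upper rows) and the 12 largest falls (lower rows). Replicate 2 (triangles) lies closest to its control in most panels, and at the control level for RNF150.

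NRF2 targets were the list with the highest share of rises. Of 26 genes 21 were tested, 14 rose and 1 fell (66.7% and 4.76%, against 15.6% and 18.1% of all genes). The median change was 0.88, against -0.01 over all genes tested. TXNRD1, thioredoxin reductase, rose by 2.38 in pair 1, 1.06 in pair 2 and 2.39 in pair 3 (change 1.94 ± 0.25, adjusted p = 4.71e-06), and NQO1, a quinone reductase, by 1.31, 1.10 and 1.24. These 2 genes rose in all pairs. HMOX1, haem oxygenase 1, had 12.04, 7.65 and 12.66 in the high dose arrays, against 8.01, 7.88 and 8.27 in the controls. HMOX1 was thus higher by more than 4 in pairs 1 and 3 and not in pair 2, where the difference was -0.22 (mean change 2.73 ± 0.55, adjusted p = 0.000426). SLC7A11, the cystine importer that feeds glutathione synthesis and is a target of both NRF2 and ATF4, had 11.13, 7.92 and 11.51 in the high dose arrays, against 6.79, 7.03 and 6.93 in the controls. SRXN1, which repairs oxidised peroxiredoxins, and OSGIN1 rose by 2.05 and 2.49, each with pair 2 below 0.5. GCLC and GCLM, the subunits of the first enzyme of glutathione synthesis, rose by 1.42 and 1.10, with pair 2 at 0.32 and -0.13. The glutathione reductase GSR (0.88), malic enzyme ME1 (0.59), the ferritin light chain FTL (0.41), transketolase TKT (0.62) and the aldo-keto reductases AKR1C2 (0.76) and AKR1C3 (0.99) rose too, while transaldolase TALDO1 fell by 0.40. Members that did not pass the test were ABCC3, AKR1C1, TXN, PRDX1, PGD and UGDH. Without replicate 2 the list had 13 rises and 2 falls, with AKR1C2 not called (adjusted p = 0.113) and ABCC3 lower (-1.07, adjusted p = 0.0384).

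ATF4 and CHOP targets were higher mainly in pairs 1 and 3. Of 36 genes 35 were tested, 16 rose and 2 fell (45.7% and 5.71%, against 15.6% and 18.1% of all genes), with a median change of 0.60. The median difference over the 35 genes was 1.19 in pair 1, -0.06 in pair 2 and 0.88 in pair 3. DDIT3, which encodes CHOP, had 11.39 and 11.08 in high dose arrays 1 and 3 and stood at -0.06 from its control in pair 2, against 7.98, 8.06 and 7.87 in the controls. The rise of DDIT3 exceeded 3 in pairs 1 and 3, and replicate 2 was at the control level (mean change 2.18 ± 0.65, adjusted p = 0.0105). ATF3, a stress-induced transcription factor, had 9.49, 3.91 and 9.38 in the high dose arrays, against 4.91, 3.57 and 5.44 in the controls. CHAC1, which degrades glutathione, had 7.31, 3.65 and 7.00 in the high dose arrays, against 3.88, 3.65 and 3.69 in the controls. GDF15, a secreted stress hormone, had 12.85, 9.04 and 12.63 in the high dose arrays, against 10.28, 10.42 and 10.34 in the controls, so that pair 2 moved the other way (-1.38). INHBE, a secreted inhibin subunit, had 9.53, 8.08 and 8.87 in the high dose arrays, against 6.35, 6.88 and 6.04 in the controls. Unlike the genes before it, INHBE was more than 1 above its control in pair 2 as well. ATF4 itself rose by 0.76, with 1.11, 0.29 and 0.88 in the pairs.

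Among ATF4 targets of amino acid supply, the subunits of the large neutral amino acid exchanger, SLC3A2 and SLC7A5, rose by 1.65 and 1.98, with pair 2 at -0.13 and -0.44. Asparagine synthetase ASNS rose by 1.57, with 2.38, 0.21 and 2.11 in the pairs. The serine synthesis enzyme PHGDH (0.99), the mitochondrial folate enzyme MTHFD2 (0.96) and cystathionine gamma-lyase CTH (1.85) rose, while cystathionine beta-synthase CBS and the proline synthesis enzyme PYCR1 fell by 0.89 and 0.65. In pair 2 MTHFD2 stood at -0.11 and CBS at 0.34. The other rises were NUPR1 (1.46), CEBPG (1.20) and XPOT (0.83), each within 0.07 of its control in pair 2. Genes of the list with no call included TRIB3 (0.56), PPP1R15A (0.60), SESN2 (0.34), DDIT4 (0.41) and PSAT1 (0.18). Without replicate 2, 21 of the 35 members were higher, against 17.5% of all genes. Among them were TRIB3 (1.09, adjusted p = 0.00217) and PPP1R15A (1.30, adjusted p = 0.011). In that setting 1 member was lower, PYCR1 no longer being called (adjusted p = 0.113). Without the replicate block 5 of the 35 were higher and 0 lower, against 1197 and 1421 of all 11356 genes. The share of rises was then closer to that of all genes. Without replicate 2, the pair with the smallest differences, the change of DDIT3 was 3.31 and that of GDF15 2.43. Higher values there follow from leaving out pair 2, where these genes stood at -0.06 and -1.38.

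Promoter sequence was searched for the elements that ATF4 and NRF2 bind, in RefSeq promoters of GRCh38.p14 that span 250 bases before to 50 bases after each start, on both strands. The ATF4 and C/EBP element, written TGATGNAA, was present in 3.67% of 27305 promoters, in 1.72% of the 9370 promoters of genes tested here, and in 6 of the 28 promoters found for the ATF4 and CHOP list, those of ASNS, CHAC1, ATF3, SLC3A2, SLC7A1 and CARS1. Of the 13 risers of that list with a promoter 4 held it. The antioxidant response element, written TGACNNNGC, was present in 13.6% of promoters, in 15.4% of those of genes tested, and in 4 of the 16 promoters found for the NRF2 list (GCLM, TXNRD1, ME1 and PGD), 3 of them among the 11 risers with a promoter. The 2 patterns do not contain one another. A match is a description of the letters and not of binding. The windows below are shown because these 5 genes lie at the centre of the groups just described, with the element in capitals and up to 50 bases on each side.
ASNS, chr7:97872419-97872526, minus strand: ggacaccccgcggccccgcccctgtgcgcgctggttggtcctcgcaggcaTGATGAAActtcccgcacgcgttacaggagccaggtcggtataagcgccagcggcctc
CHAC1, chr15:40953221-40953319, plus strand: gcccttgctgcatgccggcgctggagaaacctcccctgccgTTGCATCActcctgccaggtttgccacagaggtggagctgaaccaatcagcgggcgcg
SLC3A2, chr11:62881686-62881748, plus strand: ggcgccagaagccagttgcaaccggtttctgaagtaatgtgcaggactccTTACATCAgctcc
GCLM, chr1:93909406-93909514, minus strand: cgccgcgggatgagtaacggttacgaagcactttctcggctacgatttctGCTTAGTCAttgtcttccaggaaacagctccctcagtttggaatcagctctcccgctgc
TXNRD1, chr12:104215630-104215738, plus strand: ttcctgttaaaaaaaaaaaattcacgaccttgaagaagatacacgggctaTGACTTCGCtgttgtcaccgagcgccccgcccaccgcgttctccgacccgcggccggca
Of these 5 genes TXNRD1 was higher by more than 1 in pair 2, and ASNS, CHAC1, SLC3A2 and GCLM were within 0.21 of their controls there.

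**Figure D3:**
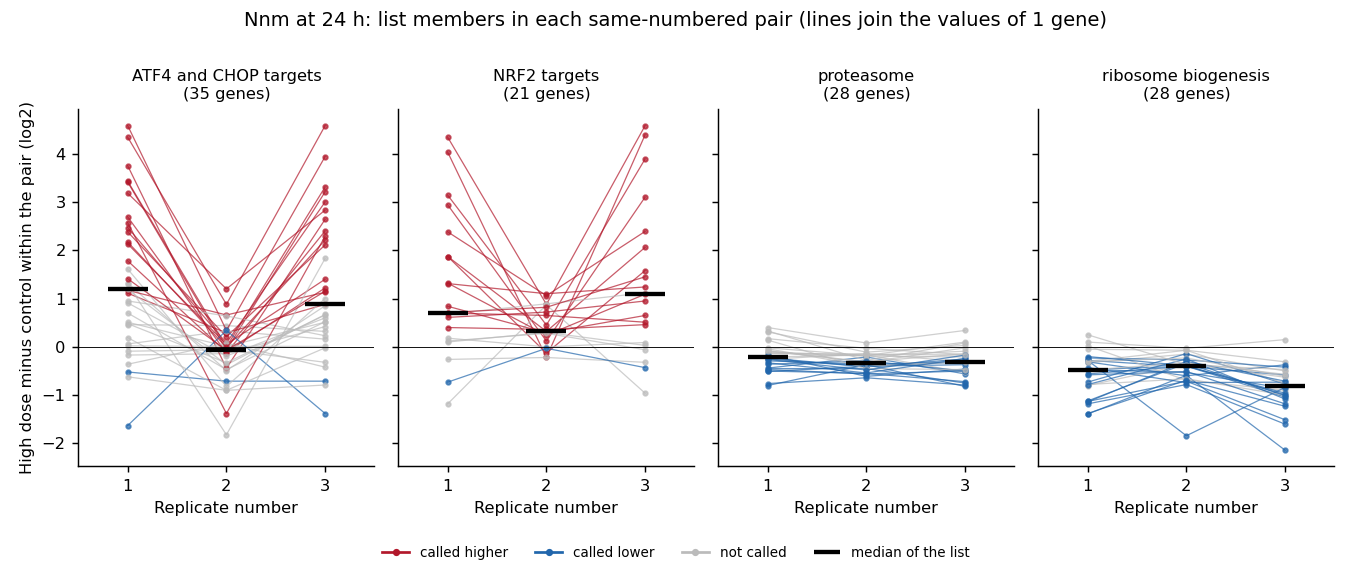
Log2 difference of high dose minus control in pairs 1, 2 and 3 for every tested member of 4 lists, with lines joining the values of 1 gene, colour by call and bars at the list's median. The ATF4 and CHOP list has medians of 1.19, -0.06 and 0.88, while the proteasome list has -0.22, -0.34 and -0.31.

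Most chaperones of the endoplasmic reticulum were not called. Of 30 genes of ER chaperones and ER-associated degradation 29 were tested, 5 rose and 0 fell, and the share of 17.2% higher was near the 15.6% of all genes. That count depended on the setting, with 8 of 29 higher without replicate 2 (against 17.5% of all genes) and 1 without the replicate block. HSPA5, the main ER chaperone, had 13.17, 12.16 and 13.16 in the high dose arrays, against 12.86, 12.82 and 13.18 in the controls, with a difference of -0.12 ± 0.27 (adjusted p = 0.766). The 5 genes that rose were ERN1 (1.96), which encodes the sensor IRE1, ERO1B (1.75), SEL1L (0.98), the sensor ATF6 (0.81) and ERO1A (0.60). ERN1 overlapped between the groups, with 9.47, 6.56 and 9.21 in the high dose arrays, against 6.20, 6.67 and 6.50 in the controls. Of 20 cytosolic and mitochondrial heat shock genes tested 6 rose and 1 fell (30% and 5%, against 15.6% and 18.1% of all genes). DNAJB6, a cochaperone that keeps proteins from aggregating, led them with 11.49, 9.25 and 11.45 in the high dose arrays, against 8.59, 8.48 and 8.42 in the controls, a change of 2.23 ± 0.36 that was positive in each pair. HSPA4L, DNAJB4, DNAJB1, BAG3 and HSPB8 rose by 1.05 to 0.65, and CRYAB fell by 0.58. In pair 2 BAG3 stood at -0.01 and HSPB8 at -0.13.

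TXNIP, which inhibits thioredoxin, was higher in all 3 pairs. Its values were 12.30, 11.95 and 12.33 in the high dose arrays, against 9.23, 9.71 and 9.01 in the controls, a change of 2.88 ± 0.71 (adjusted p = 0.00259). ARRDC4 had 7.66, 5.06 and 7.86 in the high dose arrays, against 2.95, 3.28 and 3.34 in the controls, and ARRDC3, another arrestin-domain gene, 11.24, 10.88 and 11.01 against 9.04, 9.34 and 8.81. All 3 genes were higher in every pair, including replicate 2. Of 13 tested genes of TXNIP, arrestin relatives and glucose transporters 6 rose and 2 fell (46.2% and 15.4%, against 15.6% and 18.1% of all genes). ARRDC2 (1.49), the inositol transporter SLC2A13 (1.28) and MLXIP (0.89), which encodes MondoA, rose, while ARRDC1 and SLC2A6 fell by 1.44 and 1.37. For ARRDC2 pair 2 went the other way, at -0.52. The glucose transporters SLC2A1 and SLC2A3 had changes of 0.70 and 0.87 and were not called, and without replicate 2 they were called, at 1.33 (adjusted p = 0.000201) and 1.52 (adjusted p = 0.0191). MondoA acts through paired E-boxes, searched here as CACGNG, 5 bases and CNCGNG on both strands. Such a pair was present in 0.524% of all promoters, in 0.907% of those of genes tested, and in that of TXNIP among the 11 found for the list. The TXNIP window is shown because it carries that match, from the first E-box to the second in capitals.
TXNIP, chr1:145996601-145996717, minus strand: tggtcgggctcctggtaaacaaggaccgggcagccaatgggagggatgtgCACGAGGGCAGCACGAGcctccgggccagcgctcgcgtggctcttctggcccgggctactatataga

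Genes of lysosome and autophagy were mostly higher where they changed. Of 28 tested genes 13 rose and 1 fell (46.4% and 3.57%, against 15.6% and 18.1% of all genes), with a median of 0.43. Without the replicate block 8 rose and 1 fell. NBR1, an autophagy receptor, rose in all pairs, with 11.13, 10.64 and 11.11 in the high dose arrays, against 9.80, 9.63 and 9.68 in the controls (change 1.26 ± 0.17, adjusted p = 6.67e-06). ULK1, the kinase that starts autophagy, rose by 1.98 and GABARAPL1, which coats autophagosomes, by 1.38, with pair 2 at 0.55 and 0.52. The receptor SQSTM1 rose by 0.98, with pair 2 at -0.11. The proteases CTSB and CTSL and the proton pump subunits ATP6V1A, ATP6V1H and ATP6V0E1 rose by 0.40 to 0.88, and ATG7 fell by 1.03. ATP6V1H stood at -0.27 in pair 2. Of 13 tested genes of iron handling 4 rose and 1 fell (30.8% and 7.69%, against 15.6% and 18.1% of all genes). SLC40A1, ferroportin, the iron exporter, had 9.25, 8.72 and 9.21 in the high dose arrays, against 7.81, 7.49 and 6.81 in the controls. Its adjusted p was 0.000877 and 0.131 without the replicate block.

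Interferon-stimulated genes had 10 rises and 2 falls among 28 tested (35.7% and 7.14%, against 15.6% and 18.1% of all genes), with a median of 0.47. GBP2, a guanylate-binding protein, rose in every pair, with 9.53, 9.74 and 9.22 in the high dose arrays, against 7.98, 8.42 and 7.24 in the controls. USP18, which removes the ubiquitin-like ISG15, had 5.02, 4.50 and 6.11 in the high dose arrays, against 2.46, 4.19 and 3.45 in the controls. OAS1, IFIT2, IFIH1, TAP1, HERC5, IRF1, OASL and ISG20 rose by 1.53 to 0.89, and IFI35 and OAS3 fell by 1.92 and 0.69. Of 24 cytokine and NF-kB genes 0 rose and 2 fell (0% and 8.33%), both shares below the 15.6% and 18.1% of all genes. Without replicate 2, 1 rose and 4 fell. CXCL8, the neutrophil chemokine interleukin 8, had 9.10, 11.50 and 9.16 in the high dose arrays, against 12.17, 12.67 and 12.74 in the controls. CXCL8 was lower in every pair (change -2.61 ± 0.71, adjusted p = 0.00605), and IL32 fell by 1.17.

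The lists with the highest shares of falls concerned ribosome assembly, mitochondria and the proteasome, and none of their tested members rose. Of 28 tested genes of ribosome biogenesis 18 fell (64.3%, against 18.1% of all genes), with a median of -0.61. The median was negative in each pair, at -0.47, -0.39 and -0.81. UTP4, a processome subunit, had 9.31, 10.05 and 9.63 in the high dose arrays, against 10.69, 10.74 and 10.86 in the controls (change -1.10 ± 0.15, adjusted p = 9.55e-06). MRTO4, NOP16 and RRS1, which act in assembly of the large subunit, fell by 1.12, 1.19 and 1.37. MYC, a driver of ribosome synthesis, had 11.65, 11.77 and 11.51 in the high dose arrays, against 12.45, 12.13 and 12.14 in the controls. MYC did not pass the test, although its groups did not overlap (change -0.60 ± 0.37, adjusted p = 0.226). Of 17 tested aminoacyl-tRNA synthetases 5 fell (29.4%, against 18.1% of all genes) and 0 rose. HARS1 and VARS1 fell by 1.10, FARSA by 1.02, FARSB by 1.00 and RARS1 by 0.46.

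Of 27 tested genes of the mitochondrial respiratory chain 15 fell (55.6%, against 18.1% of all genes), with a median of -0.33. SDHA, the catalytic subunit of succinate dehydrogenase, had 9.45, 10.34 and 9.42 in the high dose arrays, against 10.89, 11.04 and 10.84 in the controls (change -1.19 ± 0.16, adjusted p = 7.26e-06). NDUFS1 of complex I fell by 1.00, CYC1 of complex III by 0.95 and cytochrome c (CYCS) by 0.81. The beta subunit of the ATP synthase, ATP5F1B, fell by 0.51, with pair 2 at -0.73. Of 28 tested proteasome genes 14 fell (50%, against 18.1% of all genes), with a median of -0.30 and pair medians of -0.22, -0.34 and -0.31. PSMA3, a subunit of the core particle, had 11.39, 11.72 and 11.50 in the high dose arrays, against 12.16, 12.36 and 12.29 in the controls, a fall of 0.73. PSMC3, PSMD11 and PSMC4 of the regulatory particle fell by 0.66, 0.59 and 0.55. The proteasome differences were small and of like size in all 3 pairs. Without replicate 2 8 proteasome genes were lower, and without the replicate block 5.

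DNA repair genes had 15 falls and 0 rises among 31 tested (48.4% lower, against 18.1% of all genes), with a median of -0.46. ERCC2, a helicase of nucleotide excision repair, had 5.98, 6.20 and 5.58 in the high dose arrays, against 8.03, 6.95 and 7.84 in the controls. It was lower in every pair (change -1.68 ± 0.20, adjusted p = 2.04e-06). H2AX, LIG1 and the checkpoint kinase ATR fell by 1.61, 1.52 and 1.18, with pair 2 at -0.46, -0.46 and -0.33. Of 38 tested genes of DNA replication 10 fell and 2 rose (26.3% and 5.26%, against 18.1% and 15.6% of all genes). In pair 2 the median was 0.07, against -0.62 in pair 1 and -0.41 in pair 3. UHRF1, thymidine kinase TK1 and GINS2 fell by 1.36, 1.25 and 1.12, while the licensing factor CDT1 rose by 1.16, with 10.56, 10.14 and 10.56 in the high dose arrays, against 9.48, 9.16 and 9.14 in the controls. Of 30 genes of mitosis 2 fell, PRC1 by 0.88 and BUB1B by 0.61, and 0 without the replicate block. That share of 6.67% was below the 18.1% of all genes. The proliferation marker MKI67 had 11.30, 11.43 and 11.62 in the high dose arrays, against 11.37, 11.55 and 11.75 in the controls, a difference of -0.10 ± 0.28 (adjusted p = 0.813). Among G1 regulators, cyclin D2 (CCND2) had 7.96, 8.82 and 8.82 in the high dose arrays, against 10.74, 10.26 and 11.21 in the controls. CCND2 fell in all pairs (change -2.20 ± 0.34, adjusted p = 2.87e-05), CDK4 fell by 0.81, CDK2 by 0.60 and CDKN2A by 0.40, and the inhibitor CDKN1B rose by 0.56.

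The p53 targets were called no more often than genes in general, with 3 rises and 3 falls among 26 tested (11.5% each), and 5 rises without replicate 2. CDKN1A, the p53-induced inhibitor p21, had 10.07, 8.38 and 10.13 in the high dose arrays, against 9.45, 9.33 and 9.49 in the controls. It was higher in pairs 1 and 3 and lower in pair 2, with a mean difference of 0.10 ± 0.27 (adjusted p = 0.806). SERTAD1 had 9.90, 6.06 and 9.73 in the high dose arrays, against 5.83, 5.59 and 6.29 in the controls, and rose by 2.66. PPM1D rose by 1.08, GDF15, given above, by 1.16, and BAX, TP53INP1 and PLK2 fell by 0.70, 1.19 and 2.72. Of 27 tested genes of apoptosis and death receptors 5 rose and 6 fell (18.5% and 22.2%), shares near the 15.6% and 18.1% of all genes, and without the replicate block 3 rose. PMAIP1, the BH3 protein NOXA, rose by 1.20, CASP9 by 1.12 and the decoy receptor TNFRSF10D by 1.28, with pair 2 of TNFRSF10D at -0.32. The other rises were BMF (1.04) and APAF1 (0.97). The survival factor BCL2L1 fell by 1.08 and CFLAR by 0.71. BAX, BAK1 and BID, which promote apoptosis, fell as well, by 0.70, 0.61 and 0.65, and so did CYCS, by 0.81.

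Cholesterol synthesis and uptake had 10 falls and 2 rises among 21 tested genes (47.6% and 9.52%, against 18.1% and 15.6% of all genes), with a median of -0.57. TM7SF2, MVD, HMGCS1 and NSDHL of the synthesis pathway fell by 1.53, 1.31, 1.05 and 1.04, with pair 2 at -0.09, -0.72, 0.12 and -0.56. SC5D, also of that pathway, rose by 0.72. MYLIP, which degrades the LDL receptor, had 9.60, 8.77 and 9.43 in the high dose arrays, against 7.62, 8.30 and 7.80 in the controls, and rose by 1.36. Of 17 tested genes of fatty acid and glycerolipid synthesis 2 rose and 4 fell (11.8% and 23.5%, against 15.6% and 18.1% of all genes). Without replicate 2, 1 rose and 8 fell. Fatty acid synthase FASN and the lipogenic factor SREBF1 fell by 1.28 and 1.07, and DGAT2 and LPIN1, which act in triglyceride synthesis, rose by 1.25 and 0.84. Of 19 tested genes of fatty acid oxidation 2 rose and 5 fell (10.5% and 26.3%, against 15.6% and 18.1% of all genes). There were 8 falls without replicate 2 and 1 without the replicate block. PPARGC1A, a coactivator of mitochondrial genes, was lowest at -1.43. Of 32 genes of hypoxia and glycolysis 8 rose and 9 fell (25% and 28.1%, against 15.6% and 18.1% of all genes), and without the replicate block 5 rose and 8 fell. The falls were those of the glycolytic enzymes HK1, GPI, PFKL, PFKP, TPI1, PGK1, PGAM1 and ENO1 and of the kinase PDK1, with changes of -0.32 to -0.87. Other glycolytic genes of the list were not called, namely HK2 (0.58), PFKM (-0.31), ALDOA (-0.25), GAPDH (0.04), PKM (-0.23), LDHA (-0.16) and ENO2 (-0.51). The rises were CA12 (1.75), ADM (1.72), ANKRD37 (1.58), NDRG1 (1.42), P4HA2 (1.36), KDM3A (1.30), VEGFA (1.16) and PFKFB4 (0.94), a regulatory enzyme of glycolysis. CA12, a membrane carbonic anhydrase, had 10.32, 11.35 and 9.58 in the high dose arrays, against 9.27, 9.11 and 7.60 in the controls, with its largest difference in pair 2. Without replicate 2 CA12 (adjusted p = 0.0663) and PFKP (0.176) were not called.

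Of 15 tested EGF family ligands and receptors 5 rose and 4 fell (33.3% and 26.7%, against 15.6% and 18.1% of all genes). Without the replicate block 4 rose and 2 fell. ERBB3, a receptor of NRG1, had 7.33, 4.98 and 7.05 in the high dose arrays, against 4.41, 4.38 and 4.38 in the controls. ERBB3 was higher in every pair (change 2.07 ± 0.36, adjusted p = 0.000103) while its ligand NRG1 fell. EGF, ADAM17 and the feedback inhibitors LRIG1 and ERRFI1 rose by 1.18, 0.82, 1.58 and 0.88, and EGFR, ERBB2 and TGFA fell by 0.59, 0.64 and 0.88. ERBB2 was higher by 0.18 in pair 2. Of 29 tested matrix and TGF-beta response genes 3 rose and 5 fell (10.3% and 17.2%). The share of falls was near the 18.1% of all genes, and that of rises below their 15.6%. Without the replicate block 1 rose and 2 fell. ID3, an inhibitor of bHLH factors, was higher in all pairs, with 6.70, 6.46 and 6.46 in the high dose arrays, against 4.32, 4.65 and 4.01 in the controls. Thrombospondin 1 (THBS1), INHBA and CCN1 fell by 2.58, 2.34 and 2.01. Of 20 tested cadherin and epithelial-mesenchymal genes 3 rose and 6 fell (15% and 30%, against 15.6% and 18.1% of all genes). Without the replicate block 1 rose and 1 fell. Members not called included CDH1 (-0.57), CDH2 (0.44), EPCAM (-0.06), VIM (0.03) and SNAI2 (0.38). SNAI1 and ZEB1 rose by 1.63 and 0.99, with pair 2 at 0.71 and 0.11. CDH6, a kidney cadherin, had 10.38, 13.47 and 10.25 in the high dose arrays, against 12.80, 12.89 and 12.50 in the controls, so its fall of 1.36 came from replicates 1 and 3, with pair 2 at 0.58. CLDN1 fell by 1.00, KRT8 by 0.61 (adjusted p = 0.0799 without replicate 2) and KRT18 by 0.63.

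Markers of kidney injury had 3 rises and 6 falls among 25 tested genes (12% and 24%, against 15.6% and 18.1% of all genes), and 0 rises and 2 falls without the replicate block. HAVCR1, the injury marker KIM-1, had 10.02, 11.31 and 10.35 in the high dose arrays, against 11.08, 11.33 and 11.21 in the controls. Its mean difference was -0.64 ± 0.28 (adjusted p = 0.0796), and without replicate 2 it was -0.96 (adjusted p = 0.0234). LCN2, which encodes NGAL, was near the background level, with 3.66, 3.40 and 4.18 in the high dose arrays, against 3.65, 3.61 and 3.66 in the controls. Clusterin (CLU) rose in all pairs, with 13.13, 13.07 and 12.81 in the high dose arrays, against 12.70, 12.24 and 12.21 in the controls (change 0.62 ± 0.17, adjusted p = 0.00622, and 0.0686 without replicate 2). KRT20 fell by 2.64, KRT7 by 0.70 and KRT19 by 0.67, beside the lower sum of the epithelial markers given above, which holds KRT7, KRT8, KRT18 and KRT19. Of 9 tested genes of proximal tubule transport and brush border 0 were called in limma's test, and without replicate 2 0 rose and 2 fell. Of 20 tested drug transporters and xenobiotic enzymes 2 rose and 3 fell (10% and 15%, against 15.6% and 18.1% of all genes). Without replicate 2, 2 rose and 6 fell. The efflux pump ABCB1 had 9.01, 9.92 and 8.94 in the high dose arrays, against 9.83, 9.91 and 9.42 in the controls (difference -0.43 ± 0.22, adjusted p = 0.137, and -0.65 with adjusted p = 0.028 without replicate 2). ABCC10 fell by 2.20, with 3.37, 7.13 and 4.03 in the high dose arrays, against 6.69, 7.24 and 7.20 in the controls.

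**Figure D4:**
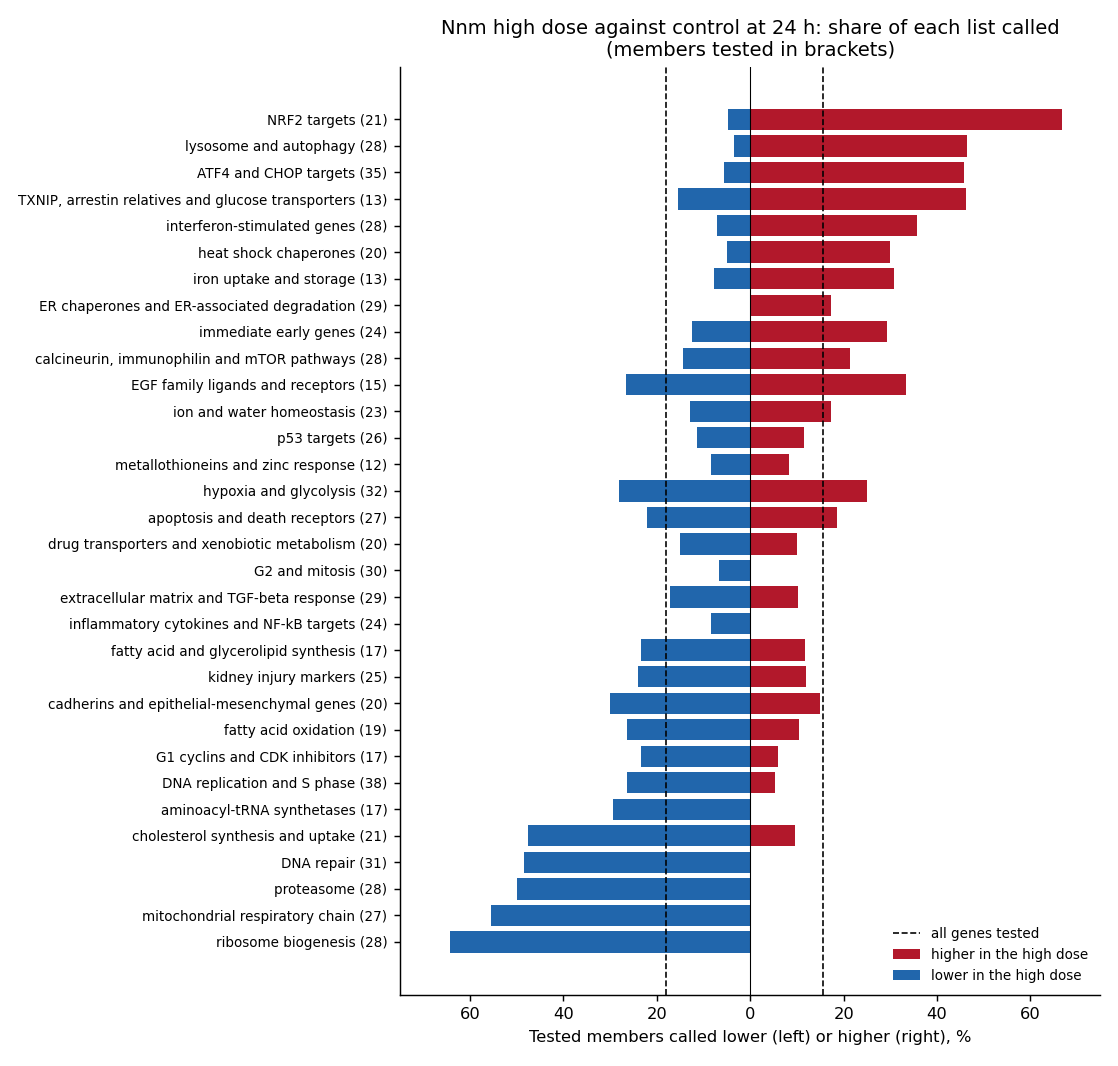
Percent of each list's tested members called lower (left, blue) or higher (right, red) in high dose against control cells at 24 h, for lists with at least 10 tested members, whose number is in brackets. Dashed lines mark all genes tested (18.1% lower and 15.6% higher), and NRF2 targets (66.7% higher) and ribosome biogenesis (64.3% lower) lie farthest from them.

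By dose, the low dose of Nnm changed 948 genes upward (8.35%) and 1101 downward (9.7%) at 24 h, against the same 3 control arrays, so the comparisons share their controls. In all 719 to 1094 genes were called at the low dose without any one of the arrays numbered 1 or 3 of either group. SLC16A14 had 10.57, 7.33 and 10.65 in the high dose arrays and 9.18, 7.02 and 8.94 in the low dose arrays, with a change from control of 6.85 at the high and 5.71 at the low dose. PCLO had changes of 4.27 at the high and 4.16 at the low dose, KDM7A of 3.77 and 3.65, and TXNIP of 2.88 and 2.75. Of the 21 tested NRF2 targets 10 rose and 1 fell at the low dose (median 0.71), against 14 and 1 at the high dose (median 0.88). Of the 35 tested ATF4 and CHOP targets 2 rose and 1 fell at the low dose (median 0.19), against 16 and 2 (median 0.60). For some single genes the estimates were further apart. HMOX1 had a change of 2.73 at the high and 1.07 (adjusted p = 0.18) at the low dose, DDIT3 of 2.18 and 0.98 (adjusted p = 0.32), GDF15 of 1.16 and -0.09 (adjusted p = 0.927), and SGK1, a kinase of sodium transport, of -2.10 and -0.49 (adjusted p = 0.598). In the direct test of high against low dose 1 gene was higher (0.00881%) and 0 were lower, with 1398 at an unadjusted p under 0.05. That gene was the pseudogene ZNF137P, with 4.83, 3.27 and 5.35 in the high dose arrays, against 2.62, 2.80 and 2.62 in the low dose arrays (difference 1.80, adjusted p = 0.0242). For the other genes named here a difference between the doses was not shown. Without replicate 2 the same test called 293 genes higher and 521 lower at the high dose, and without high dose replicate 2 alone 585 and 893.

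By time, high dose Nnm at 48 h had 1639 genes higher (14.4%) and 1468 lower (12.9%) than the controls of 48 h, and 1662 to 1819 were called in all without any one of the arrays numbered 1 or 3 of either group. Of the 38 tested genes of DNA replication 11 were higher and 1 lower at 48 h (median 0.28), against 2 and 10 at 24 h (median -0.27). For the list as a whole this shift was not tested. The change of SLC16A14 was 6.43 at 48 h and 6.85 at 24 h, that of NRG1 -3.81 and -3.52, and that of CLDN2 -3.97 and -3.52. These 3 genes thus had estimates of like size at both times. TXNIP had 6.38 at 48 h and 2.88 at 24 h. HMOX1 had 0.85 at 48 h (adjusted p = 0.268) and 2.73 at 24 h, DDIT3 0.46 (adjusted p = 0.649) and 2.18, SLC7A11 0.72 (adjusted p = 0.385) and 3.27, and LINC00973 -0.21 (adjusted p = 0.777) and -2.72. In the test of the difference between both effects 1 gene passed (0.00881%), with 1227 at an unadjusted p under 0.05, and it was none of these. SCGB3A1, a secretoglobin, had a change of 1.82 at 48 h and 0.33 at 24 h, a difference of 1.49. Without replicate 2 that test called 284 genes with a higher and 109 with a lower effect at 48 h, and without high dose replicate 2 of 24 h alone 494 and 220, and without that of 48 h alone 65 and 19.

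**Figure D5:**
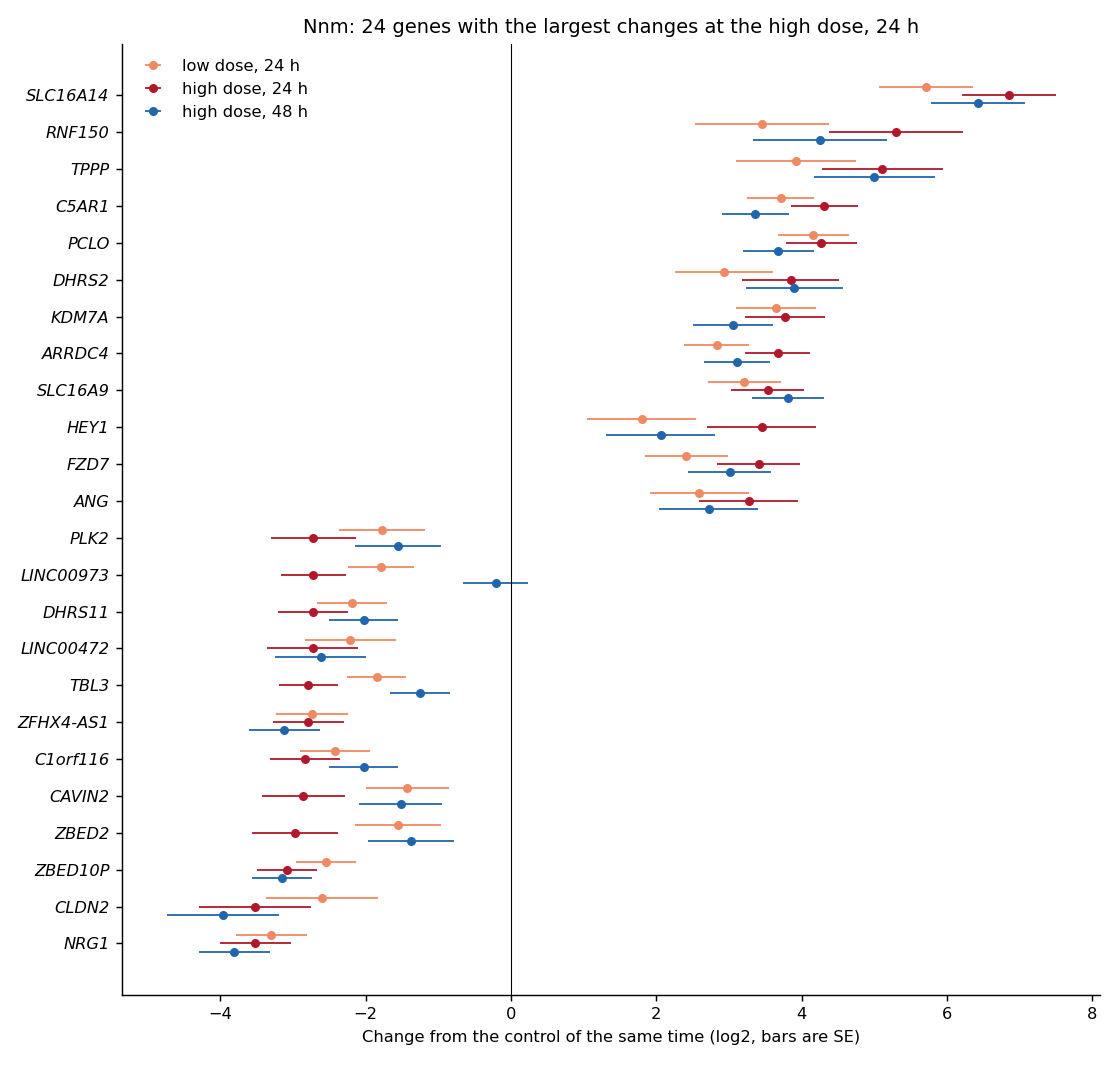
Log2 change from the control of the same time, with bars of 1 SE, for the 24 genes with the largest changes at the high dose and 24 h: low dose at 24 h (orange), high dose at 24 h (red) and high dose at 48 h (blue), where both 24 h changes share control arrays. All 12 rises are also above 0 at the low dose and at 48 h, and LINC00973 lies near 0 at 48 h (-0.21).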

How the data were processed

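The deposited series table holds log2 values of 54675 probe sets on 48 arrays, and the submitters' processing notes name GCRMA for them. The sources used here give neither its version nor whether all arrays were normalised together. GCRMA as usually run corrects background and scales by quantiles, which can compress low values and remove shifts shared by all genes, and the number of arrays limits the precision (median SE 0.22). The values were used unchanged. Of the probe sets 62 were controls, the platform annotation gave 1 gene symbol for 41091 and more for 1801, and did not list 11721. Those with 1 symbol and above log2 4 in at least 3 arrays numbered 20960, and the probe set of highest mean stood for each of 11356 genes, 5660 of which had more than 1.

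A linear model with a mean for each of 16 groups and a term for the replicate number within each array set was fitted in R 4.3.3 with limma 3.58.1, using lmFit and eBayes. A gene counted as called where its two-sided p, adjusted by Benjamini-Hochberg over all genes, was under 0.05. The replicate numbers come from the labels. Deviations from the group means of all 45 same-numbered pairs of Nnm arrays correlated above 0.1 (0.14 to 0.79, mean 0.45). Those of the 3 pairs compared here correlated at 0.14 to 0.35, so the numbers were taken to pair the arrays. The mean between other numbers was -0.21. Deviations in a group of 3 arrays sum to 0, so that value follows largely from the 0.45 and adds no evidence of its own. The fit was tested on simulated data. These held independent noise, no effect of the replicate number and an equal response in all 3 replicates, so they do not cover the unequal pairs seen here. Replicate arrays of a group correlated at 0.98 or more and 0 arrays held identical values.

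The comparison, the 38 gene lists and the rule for named genes were chosen with earlier results of these data known. Named genes were, among those called with 1 direction in all 3 pairs, the 12 that rose most and the 12 that fell most, then up to 4 called members of each list, up to 4 in each direction for the dose and time comparisons, and 12 genes always taken, such as HAVCR1 and HSPA5; other list members are given to account for their list. Lists are described by counts and medians, with no test of their own. Alternatives covered the block, the arrays fitted, scaling, the filter, the choice of probe set and leaving out arrays.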

Additional observations from a re-analysis of the deposited data

Results flagged for a closer look

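The effect of the high dose of Nnm minus that of the low dose at 24 h was 1.80 for ZNF137P, the gene for which that difference passed the test. Its values were 4.83, 3.27 and 5.35 in the high dose arrays, against 2.62, 2.80 and 2.62 in the low dose arrays, and the 3 controls were at 2.61 to 2.62. The effect of the high dose at 48 h minus that at 24 h was 1.49 for SCGB3A1, which had 5.08, 5.40 and 5.71 in the high dose arrays of 48 h and 3.57, 4.73 and 3.57 in those of 24 h. Both levels lie near the limit of log2 4 used for background.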

How the results depend on the processing

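Counts below are of genes called in limma's test, and causes of the shifts were not tested unless fewer arrays or genes entered. For high dose Nnm against control at 24 h, the fit to the 6 arrays alone called 336 genes (191 higher and 145 lower) without the replicate block and 0 with it, where 3846 had an unadjusted p under 0.05. The fit to all arrays without the replicate block called 2618. For the low dose the count was 941 without the block, 719 with its 6 arrays alone and the block, and 758 with them and no block, and for 48 h it was 1904, 0 (3907 at an unadjusted p under 0.05) and 318. For high against low dose, 0 genes were called with the Nnm arrays alone, with the 6 arrays alone (with or without the block) or above log2 6, against 2 after quantile normalisation, 11 without the filter, 8 with the median of the probe sets and 6 with Ra 48 h array 2 left out. For the effect at 48 h against 24 h, 0 were called with the arrays compared alone (with or without the block), with centring on the median of the genes tested, above log2 6 or with an intensity trend, against 5 after quantile normalisation and 5 with the median of the probe sets. Leaving out a replicate number or 1 array gave 989 to 4361 genes for high dose against control at 24 h, 0 to 1478 for high against low dose, 0 to 714 for 48 h against 24 h, 227 to 2441 for the low dose and 799 to 3537 for 48 h. No scaling moved the median change of all genes at 24 h beyond -0.07. Among single genes, signs turned for ABCC5 with the median of the probe sets (-0.68), for LCN2 (-0.10 to 0.27 with arrays left out), for CDKN1A (-0.17 to 0.63), for HSPA5 (-0.34 to 0.15) and for SCGB3A1 (-0.03 to 0.54). The 3 arrays a group limit what can be resolved, and levels near log2 4 are close to background.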

Other observations

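Genes of calcineurin, immunophilins and mTOR had 6 rises and 4 falls among 28 tested (21.4% and 14.3%), shares near the 15.6% and 18.1% of all genes, with a median change of 0.09. Without the replicate block 5 rose and 2 fell. TSC22D3, a glucocorticoid-induced leucine zipper protein, rose in all pairs, with 12.38, 11.56 and 11.66 in the high dose arrays, against 10.38, 10.23 and 9.25 in the controls (change 1.92 ± 0.35, adjusted p = 0.000133). RCAN3, an inhibitor of calcineurin, rose by 1.66, the calcineurin subunit PPP3CC by 1.39 and RICTOR by 0.89. DEPTOR, an inhibitor of mTOR, had 9.25, 12.22 and 9.11 in the high dose arrays, against 11.74, 11.88 and 11.40 in the controls. DEPTOR was lower by more than 2 in pairs 1 and 3 and higher by 0.33 in pair 2.

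Among genes of ion and water balance 4 rose and 3 fell of 23 tested (17.4% and 13%), again near those shares. The potassium channel KCNK1 rose in each pair, with 11.12, 10.01 and 11.03 in the high dose arrays, against 8.94, 9.20 and 8.82 in the controls, and the sodium-proton exchanger SLC9A2 had 5.03, 2.29 and 5.99 in the high dose arrays, against 2.27, 2.29 and 2.30 in the controls. SGK1 had 10.47, 13.70 and 10.33 in the high dose arrays, against 13.63, 13.64 and 13.53 in the controls, so the fall of 2.10 came from pairs 1 and 3. Among immediate early genes 7 rose and 3 fell of 24 tested (29.2% and 12.5%), and without the replicate block 3 rose and 2 fell. NR4A2, an orphan nuclear receptor, had 6.51, 3.35 and 6.66 in the high dose arrays, against 2.80, 3.01 and 2.87 in the controls, and FOSL1, a partner of JUN, had 4.26, 3.19 and 4.31, against 6.22, 4.45 and 7.13. Of 12 tested genes of metallothioneins and zinc response 1 rose and 1 fell (8.33% each, below the 15.6% and 18.1% of all genes). The zinc exporter SLC30A1 rose by 0.88, with pair 2 at -0.04, and the zinc importer SLC39A4 fell by 0.60. Of 6 tested histone genes 1 fell (16.7%, near the 18.1% of all genes), H1-2 by 0.82, and 0 fell without replicate 2 or without the replicate block.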
